A study of Mus musculus with 21 samples.

Results

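The 8 genes described here handle arginine and nitric oxide: Slc7a2, Nos2, Gch1, Ass1, Asl, Arg1, Arg2 and Odc1. They were taken by symbol from the deposited gene table, and all 8 were found among its 23250 genes and passed the filter on low counts, which kept 13468 genes. The cells were macrophages grown for 7 days from C57BL/6J bone marrow in medium with supernatant of cells that make GM-CSF. The series describes them as deficient in the mannose receptor (MR, gene Mrc1), a property that all 7 groups share, so there is no group with the receptor. One group was untreated (0 h), and the others received FcMR, the Fc region of human IgG1 joined to the extracellular region of MR, or an isotype control, for 4, 12 or 24 h. No untreated group is given at those later times, so in every comparison with untreated cells the agent and the time since 0 h cannot be told apart. Each group holds 3 RNA-seq libraries, 21 in all. No label says that the libraries of a group came from separate mice or cultures, and if they did not, the p-values measure only technical spread.

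Inside a macrophage, arginine can go down competing routes. Nitric oxide synthase turns it into nitric oxide and citrulline, with tetrahydrobiopterin as a cofactor, and citrulline can be rebuilt into arginine. Arginase instead splits it into urea and ornithine, from which proline and the polyamines are made. Nos2 and Arg1 are the classic marker genes of inflammatory and alternatively activated mouse macrophages.

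Library totals ran from 5532225 to 66729533 counts. Mrc1 had 0 to 11 counts in every library and did not pass the filter. Macrophage markers were abundant, with a summed level of 19743 to 35181 CPM (counts relative to the library total, after TMM scaling), while the T and B cell markers summed to at most 4.47 CPM and those of fibroblasts and endothelium to at most 9.18 CPM. Markers of other myeloid cells were present, with sums of 2013 to 3794 CPM for dendritic cells and 461 to 1903 CPM for neutrophils. Those of mast cells, basophils and eosinophils summed to 62.3 to 795 CPM. The libraries FcMR 12 h replicate 1 and isotype 4 h replicate 3 stand in each other's place in the numbering of the titles. Both also stood apart from their group in GC tilt, a log2 contrast between the ends of the GC scale (the top 10% of genes, with 57.4% GC or more, less the bottom 10%, with 41.7% or less). The tilt was 0.659 in isotype 4 h replicate 3 against −0.853 and −1.64 in the others of its group, and −0.734 in FcMR 12 h replicate 1 against 0.744 and 0.828. With both left out, the 16 calls of FcMR against isotype given below were all made again, and that of Odc1 at 12 h was added (−0.24, edgeR adjusted p = 0.0445).

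Compared per length of the longest annotated transcript, Ass1 had the highest group mean of the 8 genes in all 7 groups, from 173 CPM per kb in untreated cells to 890.4 with isotype at 12 h. Slc7a2 came next in 5 groups, and Odc1 in untreated cells (78.2 CPM per kb, with Slc7a2 at 77.7) and with isotype at 24 h. The lowest was Nos2 in untreated cells (0.631 CPM per kb) and with isotype at 24 h, and Arg1 in the other groups. With the median transcript length in place of the longest, the highest and lowest gene of each group stayed as named, while places between them moved.

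**Figure D1:**
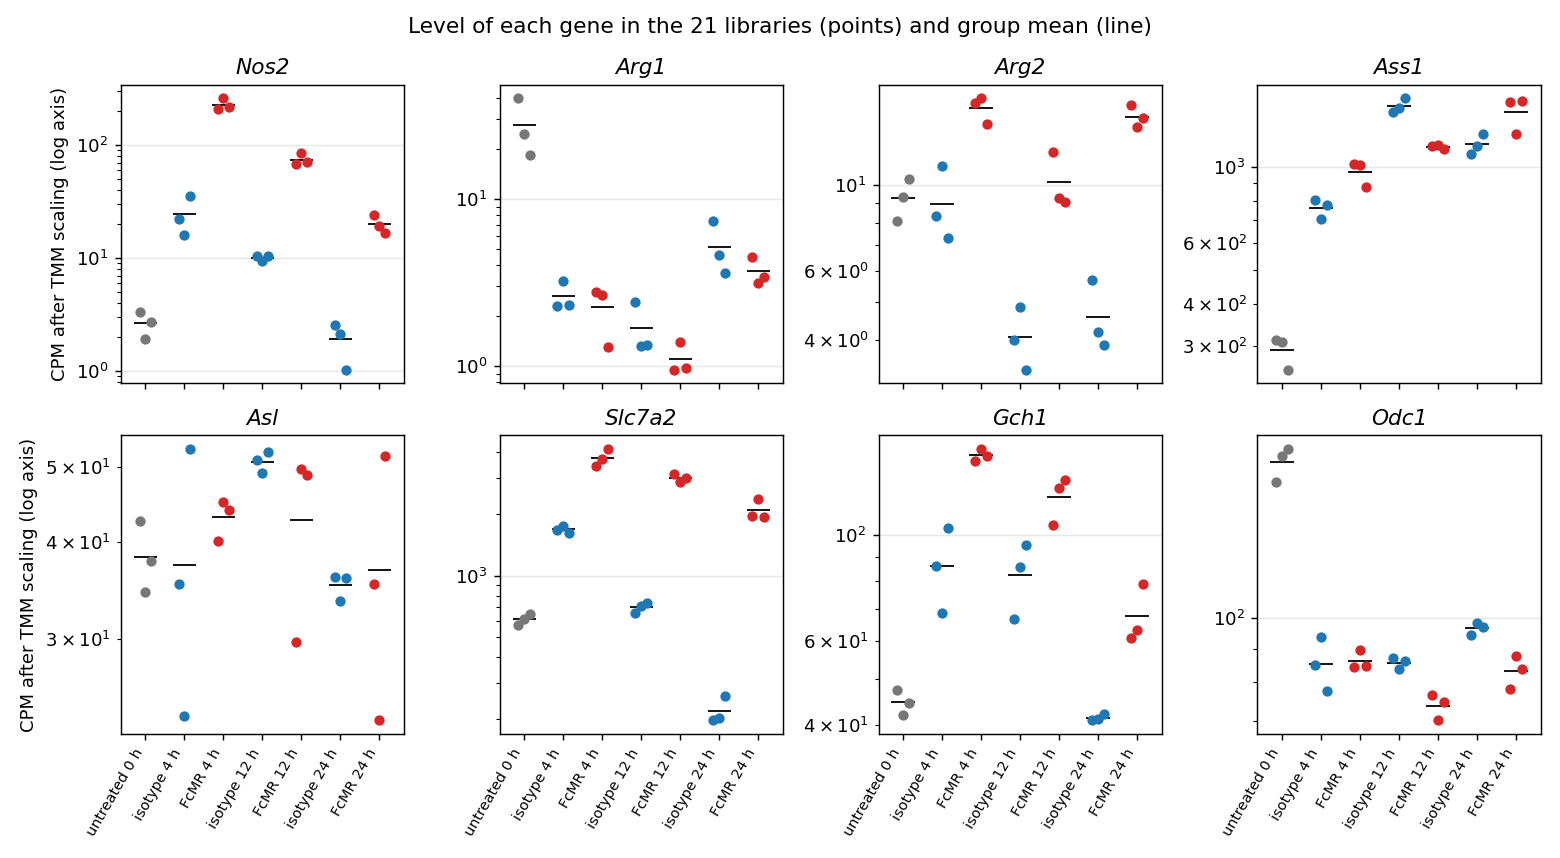
Level of each of the 8 genes as CPM after TMM scaling (log axis, one panel a gene, vertical scales differ) in the 3 libraries of each of 7 groups (points), with the group mean as a line. Nos2, Slc7a2, Gch1 and Arg2 lie higher with FcMR (red) than with isotype (blue) at each time, and Arg1 and Odc1 lie highest in untreated cells (grey).

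RefSeq promoter sequences (build GRCm38.p6) matched 3 of the 8 genes. All 3 are shown, as no promoter was matched for the other genes. Each stretch ends at the base before the annotated start and reads 5′ to 3′ on the strand of the gene, and capitals mark CCAAT and the GC box GGGCGG on either strand.
Ass1, chr2:31470020-31470206, plus strand: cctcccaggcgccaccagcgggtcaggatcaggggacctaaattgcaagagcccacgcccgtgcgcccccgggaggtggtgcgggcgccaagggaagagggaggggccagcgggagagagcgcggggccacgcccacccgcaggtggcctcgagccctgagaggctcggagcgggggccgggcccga
Gch1, chr14:47189414-47189663, minus strand: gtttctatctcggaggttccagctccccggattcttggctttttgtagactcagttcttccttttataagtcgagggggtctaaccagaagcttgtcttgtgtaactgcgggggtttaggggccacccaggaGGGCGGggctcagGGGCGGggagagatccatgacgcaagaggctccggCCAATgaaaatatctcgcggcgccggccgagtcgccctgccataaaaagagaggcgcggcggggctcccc
Odc1, chr12:17544623-17544793, plus strand: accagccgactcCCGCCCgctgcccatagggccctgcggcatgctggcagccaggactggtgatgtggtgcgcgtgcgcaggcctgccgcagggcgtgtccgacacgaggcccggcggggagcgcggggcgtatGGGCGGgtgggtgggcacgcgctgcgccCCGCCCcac

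The GC box was found 2 times in the Gch1 stretch and 3 times in that of Odc1, and CCAAT 1 time, in Gch1. In windows of the same length, the GC box was in 32.7% (250 bases) and 19.6% (171 bases) of 32851 promoters, and CCAAT in 33.9% (250 bases). These letters were searched after the first set gave no match. That set held the NF-kB forms (GGGAC or GGGAT followed by TTTCC), the interferon response form (TTTC, any 2 bases, TTTC), the gamma-activated form TTCNNNGAA, the C/EBP form TTGCNNAA, the E-box CACGTG and the CRE TGACGTCA, each on both strands. In windows of 250 bases these were in 0.14%, 0.0639%, 2.98%, 7.02%, 9.56%, 6.02% and 1.55% of all promoters. No match says only that these letters are not in these windows.

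Nos2, the inducible synthase gene, Slc7a2, an arginine transporter gene, and Gch1, a cofactor gene, were higher with FcMR than with isotype at every time. Of the arginases, the mitochondrial Arg2 was higher too, while no change of Arg1 was called. Of the 8 genes, edgeR's quasi-likelihood test called 5 at 4 h, all higher, where it called 17.7% of the 13468 genes (8.62% higher, 9.13% lower). At 12 h it called 5, with 4 higher and 1 lower, against 16.1% of all genes (8.61% higher, 7.49% lower), and at 24 h 6, with 5 higher and 1 lower, against 20.9% (11.4% higher, 9.44% lower). The median log2 difference of the 8 genes was 0.56, 0.16 and 0.51 at the 3 times, beside −0.07, −0.02 and 0.01 over all genes tested. In bulk RNA, fewer cells of a type and less RNA per cell cannot be told apart.

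**Figure D2:**
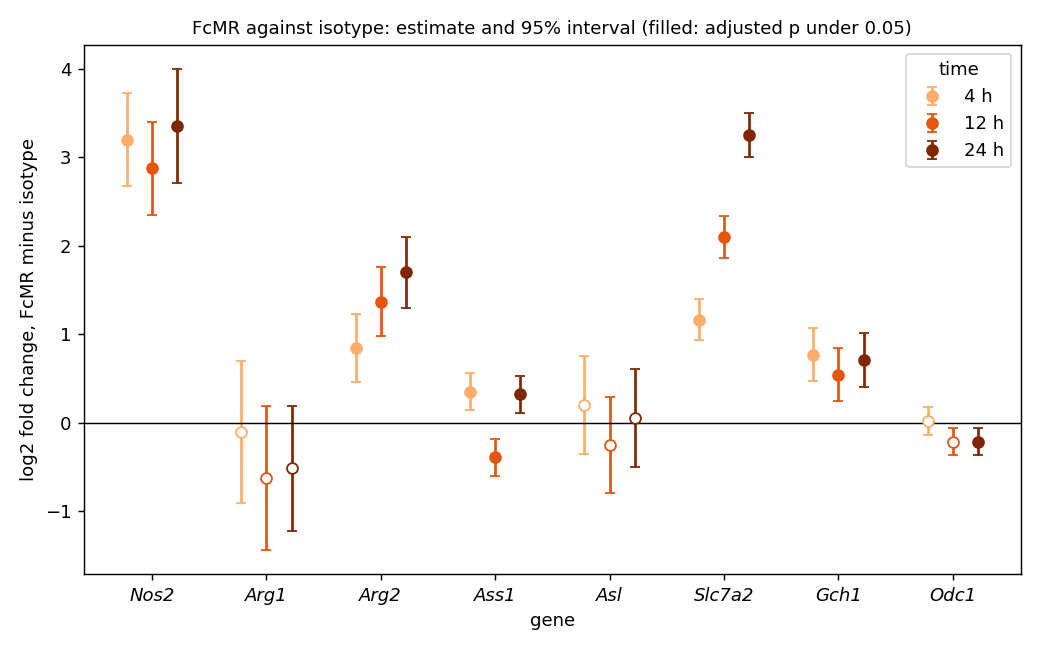
Log2 fold change of FcMR over isotype (vertical axis) for the 8 genes at 4, 12 and 24 h, with 95% intervals, filled where the edgeR adjusted p was under 0.05. Nos2 lies near 3 at every time, Slc7a2 climbs from 1.16 to 3.25, and the intervals of Arg1 and Asl include 0 at every time.

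Nos2 makes the inducible nitric oxide synthase (ENSMUSG00000020826.8, GRCm38 chromosome 11, 78920787 to 78960254). Its level in the 3 untreated libraries was 3.30, 1.93 and 2.70 CPM. At 4 h it was 22, 15.9 and 35.7 CPM with isotype and 207, 258 and 218 CPM with FcMR. The FcMR libraries stood far above the isotype libraries, which stood above the untreated ones, with no overlap. At 12 h Nos2 was at 10.4, 9.39 and 10.4 CPM with isotype and 67.7, 85.0 and 70.6 CPM with FcMR, and at 24 h at 2.55, 2.14 and 1.03 CPM with isotype and 24.2, 19.3 and 16.8 CPM with FcMR. So both courses were highest at 4 h and came down, and at 24 h the isotype libraries overlapped the untreated ones while the FcMR libraries did not.

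The log2 fold change of Nos2 for FcMR over isotype was 3.20 (SE 0.249) at 4 h, 2.87 (SE 0.249) at 12 h and 3.36 (SE 0.307) at 24 h. The edgeR adjusted p-values were 1.3e-07, 2.34e-07 and 2.73e-07. These are folds of 9.19, 7.33 and 10.2, with no overlap between the libraries compared at any time. The joint test of whether the effect differed over the 3 times gave an edgeR adjusted p of 0.686 for Nos2, and its estimate changed by 0.16 from 4 to 24 h on the log2 scale. Isotype 24 h is the shallowest group for this gene, with 8 to 26 counts a library. The other synthases stayed near the detection floor, with at most 6 counts of Nos1 and 12 of Nos3 in any library, and neither passed the filter.

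Slc7a2 encodes a transporter of cationic amino acids that brings arginine into the cell (ENSMUSG00000031596.15, chromosome 8, 40862396 to 40922308). Untreated libraries held 576, 613 and 653 CPM. After 4 h the level was 1678, 1756 and 1608 CPM with isotype and 3440.2, 3703 and 4149 CPM with FcMR. All libraries of both groups were above the untreated range, and the FcMR libraries were above the isotype libraries. By 12 h the isotype libraries had come down to 659.6, 710.0 and 733 CPM, just above all untreated ones, a difference that was not called. FcMR libraries then held 3145, 2876 and 3006 CPM. At 24 h the values were 197, 203 and 259 CPM with isotype and 1960.5, 2376 and 1931 CPM with FcMR. The isotype libraries had thus dropped below the untreated ones, and the FcMR libraries remained above them.

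The FcMR difference of Slc7a2 grew from 1.16 (SE 0.109) at 4 h to 2.10 (SE 0.112) at 12 h and 3.25 (SE 0.117) at 24 h on the log2 scale, with edgeR adjusted p-values of 1.21e-06, 1.15e-09 and 3.69e-12. In folds it was 2.24, 4.29 and 9.51. The joint test over time called Slc7a2 with an edgeR adjusted p of 7.31e-07, in a comparison that called 2 of the 8 genes and 11% of all genes tested. With isotype the level fell by 1.26 from 4 to 12 h and by 1.67 from 12 to 24 h, and with FcMR it fell by 0.53 from 12 to 24 h (edgeR adjusted p = 2.3e-07, 1.71e-08 and 0.00183). The last of these was not called when only the 6 libraries compared were fitted (adjusted p = 0.0518, in a range of 4.54e-07 to 0.0518 over its alternatives). The lincRNA Gm26584 overlaps the start of Slc7a2 on the opposite strand, and reads of the 2 cannot be told apart where strand was not used in the counting, which the sources used here do not state.

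Gch1 encodes GTP cyclohydrolase, the first enzyme of tetrahydrobiopterin synthesis (ENSMUSG00000037580.10, chromosome 14, 47153895 to 47189413). It was at 47.4, 41.9 and 44.4 CPM in untreated libraries. At 4 h isotype libraries held 85.9, 68.7 and 103 CPM and FcMR libraries 143, 151 and 146 CPM. At 12 h these were 66.7, 85.7 and 95.3 CPM against 105, 126 and 130.3 CPM, and at 24 h 40.9, 41.2 and 42.1 CPM against 60.9, 63.1 and 78.9 CPM. The FcMR libraries lay above the isotype libraries at each time, closest at 12 h, and the isotype level had returned to the untreated range or just under it by 24 h.

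For Gch1 the log2 fold change of FcMR over isotype was 0.77 (SE 0.144), 0.54 (SE 0.142) and 0.71 (SE 0.146) at 4, 12 and 24 h (edgeR adjusted p = 0.00105, 0.0124 and 0.00167). The 12 h call was lost without isotype 12 h replicate 1 (0.41, adjusted p = 0.0736), without FcMR 12 h replicate 3 (0.48, adjusted p = 0.05003) and with only the libraries compared (0.55, adjusted p = 0.0526). Over its alternatives that adjusted p ran from 0.000854 to 0.0736. The processed pseudogenes Gm49134 and Gm18811 lie within the span of Gch1, over 258 and 664 bases. Whether they share sequence or counts with Gch1 was not tested.

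Ass1 and Asl encode argininosuccinate synthase and lyase, which rebuild arginine from citrulline. Ass1 (ENSMUSG00000076441.9, chromosome 2, 31470207 to 31520672) was at 314, 309 and 257 CPM in untreated libraries. At 4 h it was at 804, 705 and 779 CPM with isotype and 1024, 1018 and 875 CPM with FcMR, and at 12 h at 1452, 1490.0 and 1588 CPM with isotype and 1154, 1159.9 and 1131 CPM with FcMR. At 24 h isotype libraries held 1091, 1156 and 1251 CPM and FcMR libraries 1548, 1247 and 1566 CPM. Every treated library was above every untreated one. FcMR was the higher treatment at 4 h and the lower at 12 h, without overlap, and at 24 h the lowest FcMR library fell just under the highest isotype library.

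The FcMR difference of Ass1 was 0.35 (SE 0.101) at 4 h, −0.40 (SE 0.1) at 12 h and 0.32 (SE 0.1) at 24 h on the log2 scale (edgeR adjusted p = 0.0213, 0.0099 and 0.0305). These are changes of less than 1.5-fold, and the joint test over time gave an edgeR adjusted p of 0.00247. Each call rested on single libraries. At 4 h it was lost without isotype 4 h replicate 2 (0.33) and without FcMR 4 h replicates 1 (0.32) or 2 (0.32), and at 12 h without isotype 12 h replicate 3 (−0.36). At 24 h it was lost without isotype 24 h replicates 1 (0.29) or 2 (0.32) and without FcMR 24 h replicates 1 (0.28) or 3 (0.27). After GC correction the differences were 0.27 and −0.23 at 4 and 12 h and were not called. Over the alternatives the adjusted p ran from 0.00144 to 0.163 at 4 h, 0.00398 to 0.255 at 12 h and 0.00525 to 0.135 at 24 h.

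Asl (ENSMUSG00000025533.15, chromosome 5, 130011258 to 130029247) stayed between 23.5 and 52.8 CPM over the 21 libraries, and no change was called against isotype. Its FcMR difference was 0.20 (95% interval −0.36 to 0.75) at 4 h, −0.25 (−0.79 to 0.29) at 12 h and 0.05 (−0.50 to 0.61) at 24 h on the log2 scale. In 3 of 7 groups the order of the Asl levels followed that of GC tilt. At 4 h the isotype libraries held 35.3, 23.8 and 52.8 CPM at tilts of −0.853, −1.64 and 0.659, and at 24 h the FcMR libraries held 35.3, 23.5 and 51.7 CPM at tilts of −0.362, −1.32 and 0.428. In both groups the library with the highest tilt had the highest Asl and the one with the lowest tilt the lowest. After GC correction Asl was called higher than in untreated cells with isotype at 12 h (0.30, edgeR adjusted p = 0.0393) and with FcMR at 4 h (0.40, edgeR adjusted p = 0.00682), both uncalled without it (adjusted p = 0.22 and 0.616). A fit of only the libraries compared also made both calls (adjusted p = 0.00265 and 0.0414), and over their alternatives the adjusted p ran from 0.00265 to 0.419 and from 0.00353 to 0.812.

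Arg1, the cytosolic arginase (ENSMUSG00000019987.9, chromosome 10, 24915221 to 24927484), was highest in untreated cells. Untreated libraries held 39.8, 24.5 and 18.2 CPM. At 4 h the level was 2.30, 3.25 and 2.32 CPM with isotype and 2.76, 2.67 and 1.30 CPM with FcMR. At 12 h it was 2.41, 1.32 and 1.33 CPM with isotype and 0.954, 1.40 and 0.971 CPM with FcMR, and at 24 h 7.36, 4.61 and 3.60 CPM with isotype and 4.52, 3.16 and 3.41 CPM with FcMR. All 18 treated libraries were below all untreated ones, and isotype and FcMR libraries overlapped at each time.

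Arg1 was lower than in untreated cells by 3.40 (SE 0.355), 4.02 (SE 0.348) and 2.39 (SE 0.321) on the log2 scale with isotype at 4, 12 and 24 h, that is 10.6-fold, 16.2-fold and 5.24-fold lower (edgeR adjusted p = 6.05e-07, 4.55e-08 and 9.83e-06). From 12 to 24 h it rose again, by 1.63 with isotype and 1.74 with FcMR (edgeR adjusted p = 0.00356 and 0.00272). FcMR differed from isotype by −0.11 (95% interval −0.91 to 0.69) at 4 h, −0.63 (−1.44 to 0.18) at 12 h and −0.52 (−1.22 to 0.19) at 24 h (edgeR adjusted p = 0.894, 0.339 and 0.332). Treated libraries held 7 to 88 counts of Arg1, which leaves these intervals wide.

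The summed level of the 5 markers of mast cells, basophils and eosinophils was also lower in the later groups than in untreated cells. A sum does not show how each of the 5 moved. It was 598 to 795 CPM in untreated cells. With isotype the sum was 324 to 416 CPM at 4 h, 172 to 251 CPM at 12 h and 63.8 to 101 CPM at 24 h. With FcMR the sum was 407 to 473 CPM at 4 h, 215 to 321 CPM at 12 h and 62.3 to 95.7 CPM at 24 h, and none of the 5 was at 0 in any library. The sum kept falling from 12 to 24 h, where Arg1 rose. Its part in the fall of Arg1 and Odc1 was not tested.

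Arg2, the mitochondrial arginase (ENSMUSG00000021125.6, chromosome 12, 79130777 to 79156301), moved differently. Untreated libraries held 8.06, 9.34 and 10.4 CPM. At 4 h isotype libraries held 8.33, 11.2 and 7.30 CPM and FcMR libraries 16.3, 16.7 and 14.3 CPM. At 12 h these were 3.98, 4.84 and 3.35 CPM against 12.2, 9.25 and 9.03 CPM, and at 24 h 5.69, 4.18 and 3.86 CPM against 16, 14.1 and 14.9 CPM. With FcMR the gene was above the isotype range at each time, and with isotype it was below the untreated range from 12 h. The FcMR libraries were above the untreated range at 4 and 24 h and overlapped it at 12 h.

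The FcMR difference of Arg2 was 0.84 (SE 0.183), 1.37 (SE 0.186) and 1.70 (SE 0.19) on the log2 scale, or 1.79-fold, 2.58-fold and 3.25-fold, with edgeR adjusted p-values of 0.00343, 3.94e-05 and 2.98e-06. The 4 h call was lost with only the libraries compared (0.83, adjusted p = 0.0530, in a range of 9.98e-05 to 0.0530 over its alternatives). That the effect differed over time was not called for Arg2 (joint edgeR adjusted p = 0.0904), but it was without isotype 4 h replicate 3 (adjusted p = 0.0430) and without both libraries out of title order (adjusted p = 0.0302), and its range over the alternatives was 0.0302 to 0.296. Arg2 shares bases with the antisense gene Gm48780 and with the end of Vti1b on the other strand, so its reads could in part be theirs.

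Odc1 encodes ornithine decarboxylase, which starts polyamine synthesis (ENSMUSG00000011179.8, chromosome 12, 17544794 to 17551505). Untreated libraries held 161, 176 and 181 CPM. With isotype the level was 85.0, 93.6 and 77.5 CPM at 4 h, 87.0, 83.8 and 86.1 CPM at 12 h and 94.5, 98.4 and 97.1 CPM at 24 h. With FcMR it was 84.4, 89.6 and 84.8 CPM at 4 h, 76.4, 70.1 and 74.7 CPM at 12 h and 78.2, 87.5 and 83.9 CPM at 24 h. All treated libraries were far below all untreated ones, and FcMR libraries were below isotype libraries at 12 and 24 h by a small margin.

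With isotype, Odc1 was lower than in untreated cells by 1.02, 1.01 and 0.84 on the log2 scale at 4, 12 and 24 h, about 2.02-fold, 2.02-fold and 1.79-fold (edgeR adjusted p = 6.53e-09, 5.19e-09 and 6.26e-08). FcMR and isotype differed by 0.02 (SE 0.0745), −0.22 (SE 0.0737) and −0.22 (SE 0.074), with edgeR adjusted p-values of 0.92, 0.0559 and 0.0476. The 24 h call was lost when any 1 of the 6 libraries compared was left out (−0.17 to −0.25), and over all alternatives its adjusted p ran from 0.00447 to 0.26. At 12 h GC correction made the call (−0.22, adjusted p = 0.00931, in a range of 0.00931 to 0.289).

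**Figure D3:**
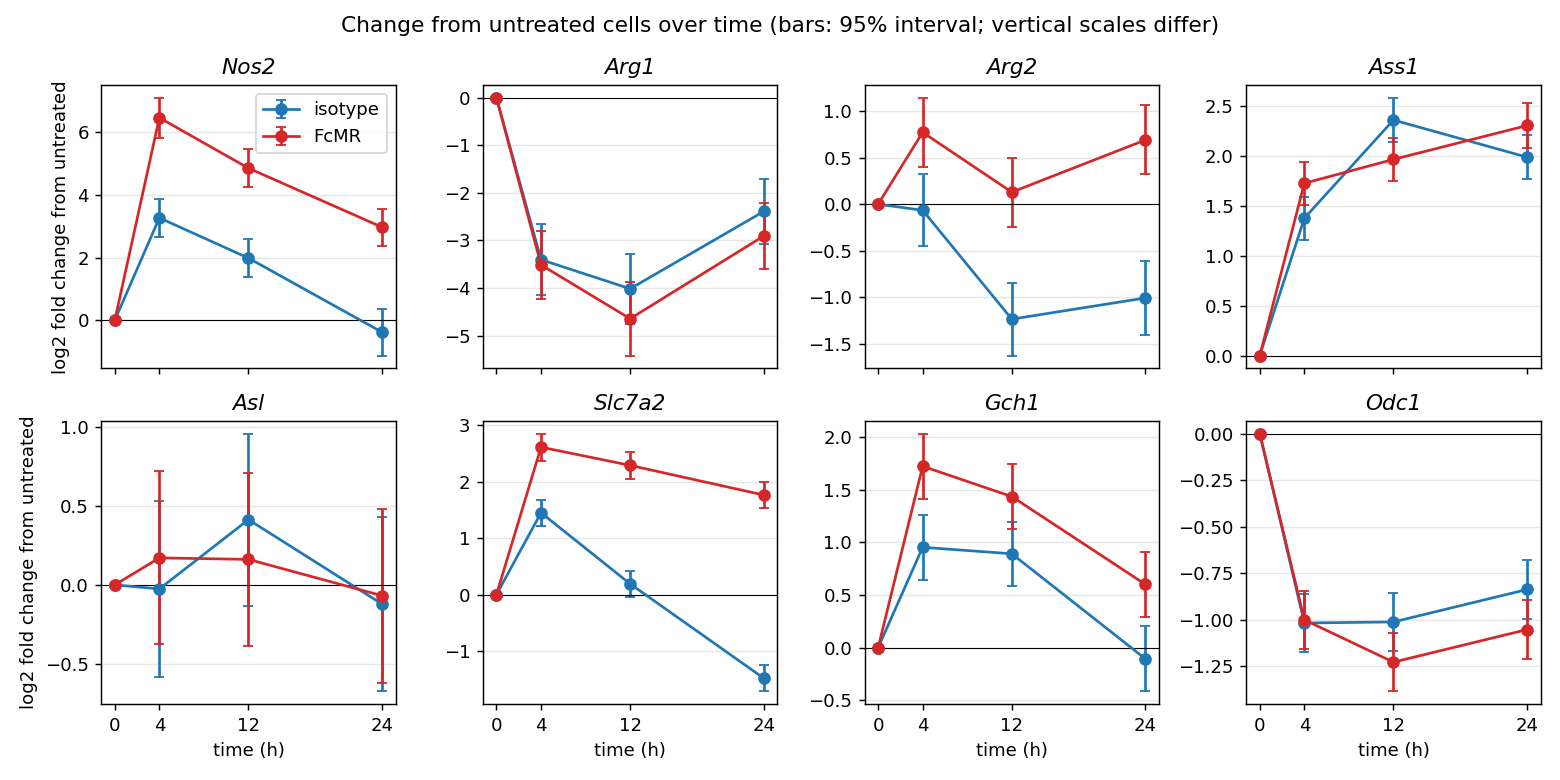
Log2 fold change from untreated cells (vertical axis, scales differ) over time in hours for isotype (blue) and FcMR (red), with 95% intervals. Nos2 and Slc7a2 are highest at 4 h in both treatments and fall afterwards. Gch1 is lower at 24 h than at 4 and 12 h in both, with no change called from 4 to 12 h. Ass1 stays above 1 and Arg1 below −2, and the curves of Slc7a2 move apart over time.

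The libraries given isotype differed from the untreated 0 h libraries in most of these genes. The edgeR test called 6 of 8 at 4 h (4 higher, 2 lower) against 35.6% of all genes (20.4% higher, 15.2% lower). It called 6 at 12 h (3 higher, 3 lower) against 41.6% (22% higher, 19.6% lower), and 5 at 24 h (1 higher, 4 lower) against 42.2% (21.3% higher, 20.9% lower). Nos2 was 9.66-fold higher at 4 h and 3.96-fold at 12 h, and at 24 h its difference was −0.38 with an edgeR adjusted p of 0.406. Slc7a2 changed by 1.45 at 4 h and −1.48 at 24 h on the log2 scale. Ass1 rose by 1.38, 2.36 and 1.99 at the 3 times, and Gch1 by 0.95 and 0.89 at 4 and 12 h. Arg2 changed by −1.24 and −1.01 at 12 and 24 h. At 12 h the Slc7a2 difference of 0.19 was not called (adjusted p = 0.174), but it was after GC correction (0.23) and with the scaling factors of the authors (0.34).

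With FcMR, edgeR called 7 of 8 genes against untreated cells at 4 h (5 higher, 2 lower), 6 at 12 h (4 higher, 2 lower) and 7 at 24 h (5 higher, 2 lower), where it called 48.2%, 48.1% and 51.4% of all genes. Of all genes these were 22.3%, 24.7% and 26.0% higher and 25.9%, 23.4% and 25.4% lower. Nos2 rose by 6.47, 4.86 and 2.97 on the log2 scale, an 88.8-fold difference at 4 h. Slc7a2 rose by 2.61, 2.29 and 1.77, Gch1 by 1.72, 1.43 and 0.60 and Ass1 by 1.73, 1.97 and 2.31. Arg1 changed by −3.51, −4.65 and −2.90 and Odc1 by −1.0, −1.23 and −1.05. Arg2 differed by 0.77, 0.13 and 0.69, and its 12 h difference was not called (edgeR adjusted p = 0.582). Both sets of comparisons use the same 3 untreated libraries, and the isotype libraries also serve the comparison with FcMR, so these values are not independent of each other.

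Between times, 4 of the 8 genes were called with isotype from 4 to 12 h (35.2% of all genes) and 5 from 12 to 24 h (16.7%), and with FcMR 5 from 4 to 12 h (40.3% of all genes, and 18.8% of all genes lower) and 6 from 12 to 24 h (23.8%). Nos2 fell in all 4 steps, by 1.29 and 2.37 with isotype and by 1.61 and 1.89 with FcMR on the log2 scale. The 5 calls with FcMR from 4 to 12 h were all decreases, in Nos2, Arg1, Arg2, Slc7a2 and Odc1. They became 2 without FcMR 4 h replicate 2, 3 without FcMR 12 h replicate 2 and 1, that of Nos2, without FcMR 12 h replicate 3. Over all genes, the same fits called 4402 of 13803, 4508 of 13783 and 4351 of 13793 in either direction.

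The ratio of Nos2 to Arg1, each as CPM per kb of the longest transcript, differed between untreated and later groups. Per library it was 0.0278 to 0.0521 in untreated cells. At 4 h it was 1.72 to 5.43 with isotype and 26.4 to 58.8 with FcMR, and at 12 h 1.52 to 2.75 with isotype and 21.4 to 25.6 with FcMR. At 24 h the isotype libraries were back under 1, at 0.101 to 0.164, while the FcMR libraries stayed at 1.74 to 2.16. The ratio was higher with FcMR than with isotype in every library at each time. No change of Arg1 was called between the 2, so this gap mainly repeats that of Nos2. Treated libraries held 7 to 88 counts of Arg1, and the ratio of 58.8 comes from the library with 7. With the median transcript length, an alternative chosen after seeing the data, it was 0.886 to 1.60 with isotype at 12 h, 0.0585 to 0.0952 with isotype at 24 h and 1.01 to 1.25 with FcMR at 24 h, so which gene is the more abundant is not settled where the ratio is near 1. Of the arginases, Arg1 was the more abundant per kb of the longest transcript in untreated cells, at 1.70 to 4.78 times Arg2. With FcMR it was 0.0879 to 0.164 times Arg2 at 4 h, 0.0757 to 0.146 at 12 h and 0.217 to 0.273 at 24 h, and with isotype 0.267 to 0.307 at 4 h, 0.264 to 0.586 at 12 h and 0.902 to 1.25 at 24 h. With the median length these isotype ratios were 0.561 to 0.646, 0.555 to 1.23 and 1.90 to 2.63, and those with FcMR stayed under 1, at 0.159 to 0.574 over the 3 times.

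**Figure D4:**
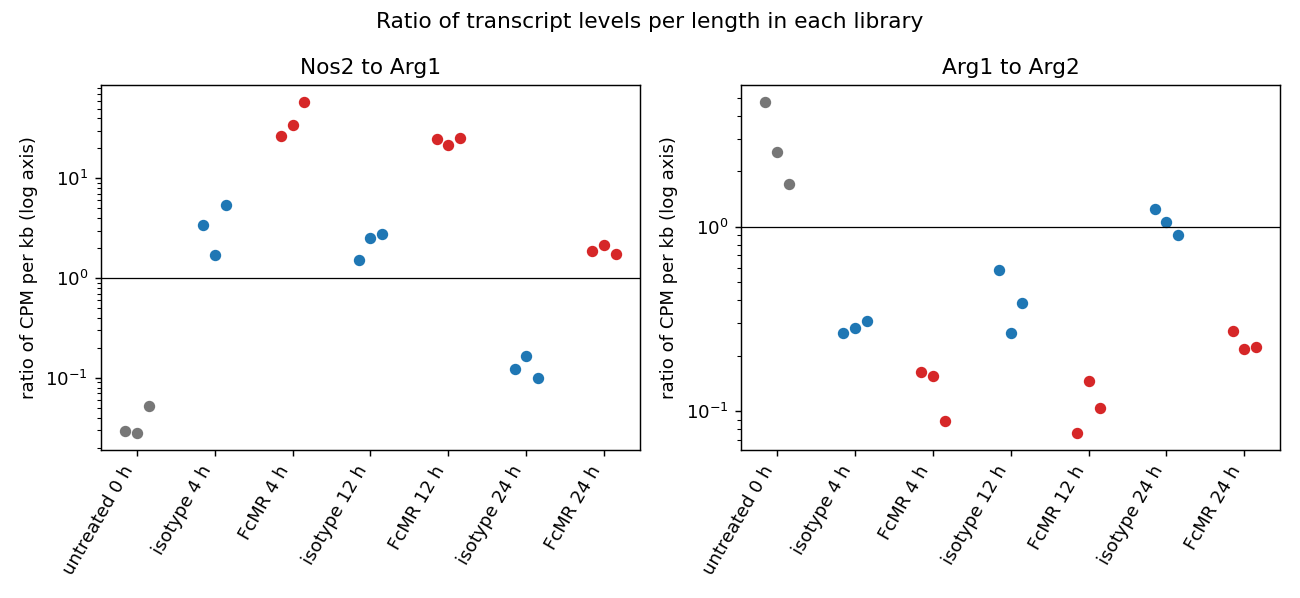
Ratio of Nos2 to Arg1 (left) and of Arg1 to Arg2 (right) as CPM per kb of the longest transcript in each library (log axis), by group. The Nos2 to Arg1 ratio lies under 0.1 in untreated cells and over 20 with FcMR at 4 and 12 h, and Arg1 exceeds Arg2 in all 3 untreated libraries.

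Around these genes, a wider set of 49 genes of arginine transport, nitric oxide, tetrahydrobiopterin, the urea cycle with proline and creatine, and polyamines was followed. Of these, 46 are in the table and 38 were tested. FcMR and isotype differed in 6 of the 38 at 4 h (1 higher, 5 lower), 4 at 12 h (1 higher, 3 lower) and 6 at 24 h (1 higher, 5 lower), with median log2 differences of −0.18, −0.12 and −0.12. Of all genes tested, 17.7%, 16.1% and 20.9% were called at these times. The higher ones were 8.62%, 8.61% and 11.4% and the lower ones 9.13%, 7.49% and 9.44%, with median differences of −0.07, −0.02 and 0.01. With both directions together, the share called in the set was thus no larger than over all genes. At each time the share called lower was larger than over all genes and the share called higher was smaller, in each case by a few genes at most. The polyamine oxidase Paox was the only called gene of the set past a log2 change of 1. At 4 h it was at 1.16 ± 0.292 CPM with FcMR and 2.44 ± 0.765 CPM with isotype (SD, n = 3), a log2 fold change of −1.06 (edgeR adjusted p = 0.0182).

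Among the other transporters, the heavy chain gene Slc3a2 was higher with FcMR at 4 h (0.66, edgeR adjusted p = 0.00561) and Slc7a6 at 24 h (0.65, edgeR adjusted p = 0.00555). Slc7a1, the other main cationic amino acid transporter gene, was higher at 12 h (0.35) and lower at 24 h (−0.27) by the edgeR test (adjusted p = 0.00915 and 0.0495). The mitochondrial carrier Slc25a13 was lower at 4 and 24 h (−0.49 and −0.59) and the lysosomal arginine sensor Slc38a9 at 4 and 12 h (−0.79 and −0.44). In the polyamine list Amd1 was lower at 4 h (−0.45), and Sat1, which acetylates polyamines for export or breakdown, was lower at 12 and 24 h (−0.52 and −0.58). Ornithine aminotransferase Oat was lower at 24 h (−0.28). Of the genes around the cofactor, Qdpr was lower at 12 h (−0.41), while Pts and Spr, which act after Gch1, were not called at any time. Nostrin, whose protein binds the endothelial synthase, was lower at 4 h (−0.54).

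**Figure D5:**
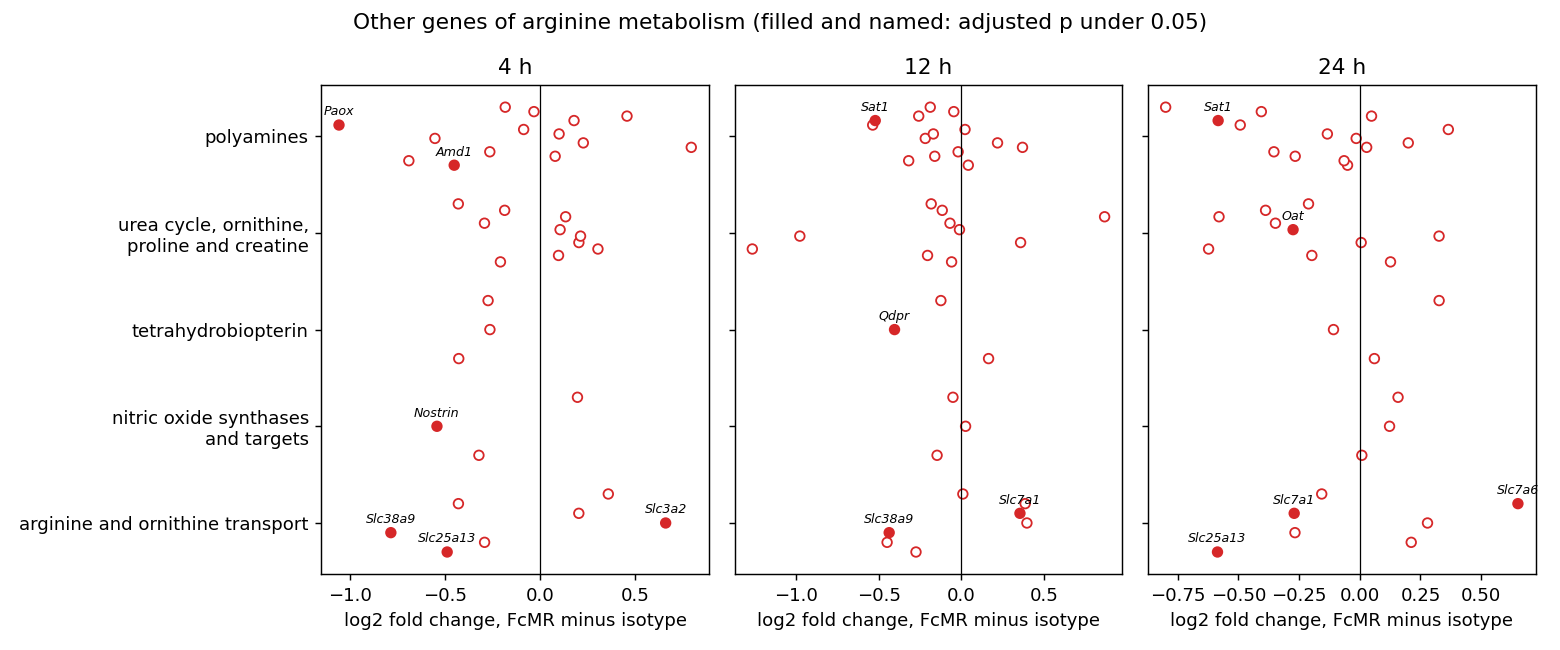
Log2 fold change of FcMR over isotype (horizontal axis) for tested genes around the 8, by list, at 4, 12 and 24 h, filled and named where the edgeR adjusted p was under 0.05. Most genes lie within 0.5 of 0, and Paox at 4 h is the called gene farthest from it.

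In the same set, isotype differed from untreated cells in 13 of 38 genes at 4 h (4 higher, 9 lower), 19 at 12 h (8 higher, 11 lower) and 11 at 24 h (4 higher, 7 lower), where 35.6%, 41.6% and 42.2% of all genes were called (15.2%, 19.6% and 20.9% lower). Aldh18a1 and Pycr1, which make proline from glutamate, were among the lowest. Aldh18a1 changed from 21.5 ± 1.5 CPM in untreated cells to 5.13 ± 0.728 CPM at 4 h and 9.75 ± 1.24 CPM at 24 h (SD, n = 3), log2 changes of −2.06 and −1.14 (edgeR adjusted p = 1.04e-06 and 0.000244). Pycr1 was at 2.14 ± 0.308 CPM in untreated cells, 0.166 ± 0.0177 CPM at 12 h and 0.255 ± 0.04 CPM at 24 h, called lower at both times (edgeR adjusted p = 2.47e-06 and 3.24e-05). These levels rest on 1 to 12 counts a library at 12 h and 2 to 3 at 24 h, so no fold is given for Pycr1. Slc7a1 changed from 54.4 ± 0.386 CPM to 27.6 ± 1.14 CPM at 12 h and 17.8 ± 1.16 CPM at 24 h, so both cationic transporter genes were below the untreated level with isotype at 24 h.

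Of the others named by the same rule, Slc3a2 was higher at 4 and 12 h (0.70 and 0.91) and Slc7a6 at 4 h (0.60). Paox was higher at 12 and 24 h (1.36 and 1.94), Nostrin at 4 and 24 h (0.56 and 1.21), Slc38a9 at 24 h (0.85), Sms at 4 h (0.69), Sat1 at 24 h (0.30) and Atp13a2 at 12 h (1.8). In the cofactor list the 12 h changes of Spr and Pts were opposite, 1.02 and −0.98. Lower genes were Nags (−2.68) and Gamt (−1.92) at 4 h, each with few counts, Smox at 4 h (−1.19), the creatine gene Gatm at 12 h (−1.02) and the polyamine transporter Atp13a3 at 24 h (−0.75).

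Marker levels moved in these comparisons as well. At 24 h the 7 macrophage markers summed to 25244 to 27094 CPM with FcMR and 31004 to 35181 CPM with isotype. The 8 neutrophil markers summed to 596 to 744 CPM with FcMR and 1391 to 1484 CPM with isotype at that time, and to 1729 to 1903 CPM in untreated cells. The dendritic cell markers summed to 2129.5 to 2690.4 CPM with FcMR and 2013 to 2194 CPM with isotype. At 4 h the macrophage sums were 28051 to 28423 CPM with FcMR, within the 27183 to 30921 CPM of isotype. The dendritic cell sums were then 3163 to 3706 CPM with FcMR and 2214 to 3445 CPM with isotype. Neutrophil sums were 1228 to 1421 CPM with FcMR and 1239 to 1764 CPM with isotype at 4 h. Those of mast cells, basophils and eosinophils were 407 to 473 CPM with FcMR and 324 to 416 CPM with isotype. At 12 h the neutrophil sums were 461 to 719 CPM with FcMR and 631 to 740 CPM with isotype. Macrophage sums were then 19743 to 23221 CPM with FcMR and 22782 to 24941 CPM with isotype. The dendritic cell sums at 12 h were 2496 to 3501 CPM with FcMR and 2876 to 3105 CPM with isotype. The part of these shifts in the differences between FcMR and isotype was not tested.

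For likeness of pattern, log2 levels over the 21 libraries were correlated with those of 10451 protein-coding genes, as a description of libraries that share groups and depth. The closest to Nos2 were Schip1 and Stip1 (Pearson r = 0.978 for each), and to Slc7a2 Lmo4, Inhba and AA467197 (0.975, 0.968 and 0.967). Gch1 was closest to Tshz1, Slco3a1 and Cd40 (0.978, 0.974 and 0.973), and Arg2 to Pde4b, Serpinb2 and Cd80 (0.944, 0.918 and 0.914). For Arg1 these were Polr2a, Rassf5 and Tcp11l2 (0.951, 0.938 and 0.937), and for Odc1 Pxdc1, Acat1 and Tcp11l2 (0.951, 0.946 and 0.938). Ass1 was closest to Ms4a6b, Epsti1 and Ly9 (0.960, 0.959 and 0.954) and Asl to Tkt, Sart3 and Aldoa (0.953, 0.949 and 0.945). Among the 8 genes, Nos2 correlated with Gch1 at 0.945 and with Slc7a2 at 0.919, and Arg1 with Odc1 at 0.900.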

How the data were processed

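RNA of 21 libraries was sequenced as 75 bp single-end reads with a TruSeq kit, per the labels' protocols. The submitters' processing notes name CASAVA 1.8.2, kallisto 0.44.0, DESeq2, mm10 and GRCm38, without their roles. The raw table deposited by the authors was read as estimated counts, all whole numbers, and each of its 23250 genes has at least 10 counts in sum. The second deposited table, a linear normalized signal, gave the authors' scaling factors for an alternative only. Gene IDs were matched to GENCODE M21 (GRCm38), with a symbol for 23187.

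Counts were tested with edgeR 4.0.16 (R 4.3.3), in one quasi-likelihood fit of the 21 libraries with TMM factors and filterByExpr (minimum of 10 counts), and Benjamini-Hochberg adjustment over the 13468 genes kept. A gene was called at an adjusted p under 0.05. Intervals are 95% and cover the spread between libraries. CPM values are after TMM scaling. The test was tried on simulated counts. The plan had named count tests, and these were kept for estimated counts. The alternatives were RLE factors, the authors' factors, DESeq2 1.42.0, other filters, GC correction, a replicate block, only the libraries compared, and libraries left out.

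The 8 genes, the other lists and the motifs were chosen with earlier results of these data known. Besides the 8, the text names the set's genes called between FcMR and isotype, the 4 highest and 4 lowest called against untreated cells at each time, and for each gene the 3 most alike. The rule for FcMR against isotype asked for a log2 change of at least 1, which Paox alone met, and the others of that comparison were chosen after their values were seen. A few genes that fall under these rules are counted but not reported by name here. Replicate pairs correlated at 0.920 to 0.987 and differed by more than sampling noise.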

Additional observations from a re-analysis of the deposited data

Results flagged for a closer look

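The difference between FcMR and isotype was not the same at 4, 12 and 24 h for 2 of the 8 genes, by a joint test of the change itself. Over all genes, the same test called 1484 of 13468. For Slc7a2 the edgeR adjusted p was 7.31e-07, and the log2 difference went from 1.16 to 2.10 and 3.25 with all 3 FcMR libraries above all isotype libraries at each time. For Ass1 the edgeR adjusted p was 0.00247, with log2 differences of 0.35, −0.40 and 0.32. The Ass1 call over time was made under every alternative run, although the single differences at 4 and 12 h were not called after GC correction.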

How the results depend on the processing

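The differences between FcMR and isotype of Nos2 and Slc7a2 at all 3 times, of Arg2 at 12 and 24 h and of Gch1 at 4 and 24 h were called in the same direction under every alternative run. With only the libraries compared, 3 genes were called for FcMR against isotype at 4 h, 3 for FcMR at 12 h against 4 h and 3 for FcMR at 24 h against 12 h, and without an expression filter 3 for FcMR at 12 h against 4 h. Over all genes, these 4 fits called 868 of 11769, 4852 of 12839, 1046 of 12708 and 4867 of 23250, in that order. Leaving out 1 library gave 4 to 5 of the 8 genes for FcMR against isotype at each time and 1 to 4 for FcMR at 12 h against 4 h. Over all genes it gave 1589 to 3151, 1570 to 1841 and 2091 to 3135 calls of FcMR against isotype at 4, 12 and 24 h. For FcMR at 12 h against 4 h it gave 4351 to 5915, and these fits tested 13774 to 14020 genes. The change of the Ass1 difference from 4 to 24 h, −0.03 on the log2 scale, became 0.101 with the authors' factors, 0.189 with GC correction and 0.172 with GC correction and the replicate block, and ran from −0.161 to 0.07 with 1 library left out (0.014, 0.01, 0.01 and 0.07 in the cases above 0). The cause was not tested. Whether replicate numbers pair the libraries was not settled. Mean correlations of same-numbered deviations were −0.071, 0.106 and 0.014 for FcMR against isotype at 4, 12 and 24 h, while 12 of the 21 libraries correlated best with their own number. With the number as a replicate block all 112 results of the 8 genes stayed on their side of the threshold.

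Over all genes, calls of FcMR against isotype at 4 h ran from 868 (only the libraries compared) to 4027 (replicate block with GC correction) around 2390, and RLE factors gave 1412 higher genes of 2251 where TMM gave 1161. Depth limits Arg1 and Nos2 most, with as few as 7 and 8 counts in a library.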

Other observations

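Per kb of the longest transcript, Ass1 exceeded Asl by 9.67 to 12.8 times in untreated libraries and by more in every treated library, up to 75.4 times with FcMR at 24 h. The ratio was 21 to 42.1 with isotype at 4 h and 43.1 to 49.6 at 24 h. With the median transcript length, an alternative chosen after seeing the data, it was 16.3 to 21.5 in untreated libraries and at most 127 with FcMR at 24 h.

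Arg1 was highest in replicate 1 in 5 of 7 groups, Nos2 in 4 and Slc7a2 in 1. Asl followed the order of GC tilt in 3 of 7 groups and Gch1 in 4, at transcript GC contents of 54.6% and 47.2%.

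Ass1 and Odc1 ran opposite over the 21 libraries (Pearson r = −0.868), and Arg1 and Arg2 showed almost no relation (0.0250), which describes the libraries and their shared groups only.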
